A study of Mus musculus with 5 samples.

Results

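Foamy macrophages of atherosclerotic mouse aorta were examined as the cells of a macrophage gate that held UMIs of both Gpnmb, a lysosomal glycoprotein of lipid-loaded macrophages, and Lpl, the lipase that frees fatty acids from lipoproteins. A UMI (unique molecular identifier) stands for 1 captured RNA molecule. The members were chosen by measured values. They had deposited natural-log values above 2 for C1qa and C1qb, subunits of complement C1q, and a value above 0 for Csf1r or Adgre1, receptors of macrophages. They had fewer than 2 of the interferon-induced genes Rsad2, Cxcl10, Cxcl9 and Ifit1, and fewer than 3 of the mitosis genes Mki67, Top2a, Birc5, Ube2c and Cenpf, above 0. In all, 787 of 18260 cells met the rule, out of 2510 cells in the macrophage gate, of which 2119 remained after the interferon and cycling exclusions. The levels of these 15 genes are given as a description, without a test.

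The study profiled aortic arches of mice on normal chow for 28 weeks by droplet 3′-end RNA sequencing of pooled, sorted live cells, for which the design text gives n = 6 without saying whether per group or per library. The labels assign 2 libraries to mice that lack only Apoe (Apoe-/-) and 3 to mice that also lack Oasl1 (Oasl1-/-Apoe-/-), so that all the mice lacked Apoe, the apolipoprotein through which the liver clears remnant lipoproteins, and no library had normal lipid metabolism. The comparison asks what the absence of Oasl1, an interferon-induced member of the oligoadenylate synthetase family, goes with in these cells. The labels do not say that the libraries of a group came from separate pools, so p-values here measure the spread between libraries, which may be technical.

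Foam cells form when macrophages of the artery wall take up modified lipoproteins, hydrolyse their cholesteryl esters in lysosomes, and store the cholesterol again in lipid droplets or hand it to efflux transporters. They are known for high lysosomal protease and lipid-chaperone transcripts and for the Trem2 receptor programme, and for lower inflammatory transcripts than other lesional macrophages.

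The targeted gene did not check the labels. Oasl1 (chr5:114923240-114937915, + strand, GRCm38) had 2 and 3 UMIs in the foamy cells of the Apoe-/- libraries against 42, 39 and 36 in those of the libraries labelled Oasl1-/-Apoe-/-. The level was therefore higher where the labels give the gene as deleted. The study's allele lacks the promoter and an early exon, while 3′-end sequencing reads transcripts near their end. Where the Oasl1 reads lay was not examined, and the cause of the higher level was not tested. The groups are therefore called by their labels throughout, and every direction below rests on those labels. Apoe itself stood at 0.241 and 0.288 against 0.293, 0.243 and 0.349 CP10K (UMIs per 10000 UMIs of the cell, averaged over the cells of a library), and the groups overlapped.

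The 5 libraries gave 164 and 156 foamy cells in the Apoe-/- group and 168, 138 and 161 in the group labelled Oasl1-/-Apoe-/-. Foamy cells were deep, with median UMIs of 7789 and 7355.5 against 8283.5, 8172.5 and 8710 per cell, where the Gpnmb-negative cells of the same gate had medians between 3333 and 4712. Median mitochondrial shares were 1.97% to 2.23%. Across libraries 165 cell barcodes recurred, and 1 did so among foamy cells. The libraries held 1186788 to 1502814 UMIs in foamy cells.

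The label was checked on markers that the rule did not use. C1qc, the remaining C1q subunit, had a UMI in 100% of the 787 cells, Cd68 in 98.7%, Trem2 in 99.2%, Fabp5 in 90.5% and Spp1 in 84.0%, and in T cells of the same libraries (UMIs of at least 2 of the Cd3 genes and no C1qa, 586 cells) the shares were 4.61%, 2.22%, 0.853%, 7.17% and 13.8%. Median depths were 8050 UMIs in the foamy cells and 1812.5 in the T cells. In the Gpnmb-negative macrophages, at a median of 4459 UMIs, the shares were 99.6%, 88.1%, 76.4%, 25.9% and 52.4%, so that C1qc and Cd68 mark macrophages of either class. The macrophage markers Mertk and Fcgr1, also outside the rule, were less uniform, with a UMI in 30.1% and 70.1% of the foamy cells. Their shares were 10.0% and 50.4% in the Gpnmb-negative macrophages and 0.171% and 0% in the T cells. Fcgr1 was found in 61.6% of foamy cells of the Apoe-/- group and 76.0% of the other. T-cell and dendritic cell markers were near 0, with sums of at most 0.175 and 0.0275 CP10K in any library.

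Smooth muscle markers were present, with Acta2, Myh11, Tagln, Cnn1, Myl9 and Lmod1 summing to 12.5 and 4.42 CP10K in the Apoe-/- libraries and 2.01 to 8.23 in the others. Foamy cells with at least 3 UMIs of these genes made up 36.6% and 27.6% against 8.70% to 17.9%. Haemoglobin genes summed to 1.62 and 26.1 CP10K in Apoe-/- replicates 1 and 2, against 0.356 to 0.572, so that replicate 2 stood apart in level. Foamy cells with at least 3 haemoglobin UMIs made up 14.6% and 18.6% in these replicates, against 0%, 2.17% and 0% in the other group. Monocyte markers summed to 0.149 and 0.183 against 0.388 to 1.40 CP10K, and fibroblast markers to 0.494 and 0.0959 against 0.374 to 1.93. The part of these markers in the differences below was not tested, but counts without the smooth muscle-positive and haemoglobin-positive cells are given where they bear on a result.

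Foamy cells were a smaller share of the gated macrophages in the libraries labelled Oasl1-/-Apoe-/-, and a slightly larger share of all cells. Of the gated macrophages, 55.2% and 52.7% were foamy in the Apoe-/- libraries (mean 54.0% ± 1.78, SD, n = 2), against 31.5%, 27.8% and 32.4% (mean 30.6% ± 2.43, SD, n = 3). The groups did not overlap, and the difference of -23.4 percentage points had a p of 0.1 in the exact two-sided permutation test, the smallest that the 10 assignments of the libraries allow. The Wilson 95% intervals, which cover counting error only, ran from 47.0% to 60.8% in the Apoe-/- libraries and from 24.1% to 36.6% in the others.

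The denominator moved with this share. The macrophage gate held 7.87% and 7.28% of all cells in the Apoe-/- libraries and 19.1%, 18.4% and 19.6% in the others. As a share of all cells, foamy cells stood at 4.02% and 3.60% (mean 3.81% ± 0.301, SD, n = 2) against 4.94%, 4.30% and 4.99% (mean 4.74% ± 0.385, SD, n = 3), with an exact permutation p of 0.2. The share rests on detection of both genes, so every cell was also thinned to 2000 UMIs and the gate applied again. This left out 801 and 1068 shallower cells of any type in the groups, of which 46 and 114 were gated macrophages. The foamy share of gated macrophages was then 27.4% and 35.4% against 17.9%, 14.8% and 18.5%. Both shares fell, to means of 31.4% and 17.05%, and the difference was -14.3 points. At full depth, Gpnmb had a UMI, with or without Lpl, in 64.3% and 64.5% of gated macrophages against 37.1% to 41.1%. Lpl had one, with or without Gpnmb, in 70.4% and 68.6% against 51.0% to 54.9%.

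**Figure D1:**
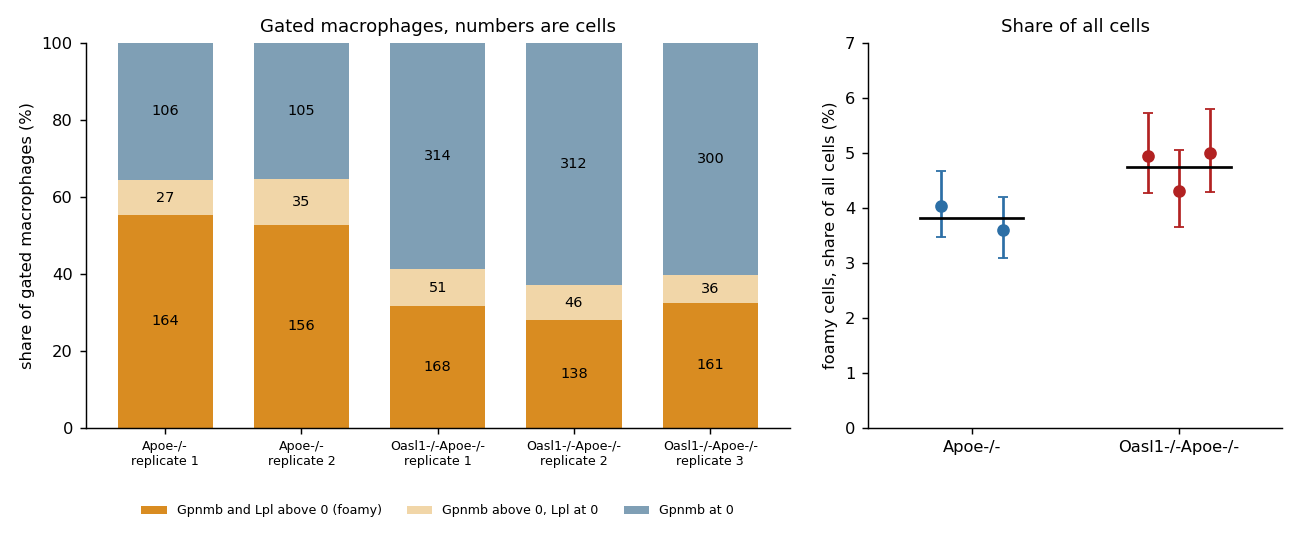
Makeup of the gated macrophages in each library (left, stacked bars in percent with the number of cells) and foamy cells as a percentage of all cells (right, 1 point a library with its Wilson 95% interval, the line being the group mean). The foamy part of the bars is 55.2% and 52.7% in the Apoe-/- libraries and 27.8% to 32.4% in the others, while the shares of all cells lie between 3.60% and 4.99%.

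The exclusions took unequal numbers from the groups. Before them, 896 gated cells held both Gpnmb and Lpl, of which 28 were cycling and 82 had at least 2 of the 4 interferon genes. The last made up 2.33% and 3.66% of such cells in the Apoe-/- libraries and 12.1%, 13.2% and 13.4% in those labelled Oasl1-/-Apoe-/-. With these cells kept, the foamy share of gated macrophages was 54.0% and 52.3% against 31.2%, 28.1% and 31.0%.

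Just inside the thresholds, 93 of the 787 cells held exactly 1 Gpnmb UMI and 115 exactly 1 Lpl UMI. The cells with 1 Gpnmb UMI had library means of 18.5 to 80.8 CP10K of Spp1 and 28.4 to 49.8 of Psap, where the whole class had 83.4 to 128 and 58.0 to 83.1. Just outside, 195 gated cells held Gpnmb and no Lpl, and their library means were 55.5 to 65.4 CP10K of Psap and 26.5 to 74.0 of Fabp5. The 436 cells with Lpl and no Gpnmb had 24.9 to 34.4 CP10K of Psap and 1.66 to 5.61 of Fabp5, and the 701 cells with neither had 23.2 to 29.4 and 1.21 to 11.1. In both readings the cells with Gpnmb alone lay nearer to the foamy class than the cells with Lpl alone did.

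Among the foamy cells themselves, the genes with the largest variance over mean were Spp1, Cd74, Lyz2, Fth1, Malat1, H2-Aa, Actb, H2-Ab1 and Fabp5, in that order. This ratio tends to rise with level, so the order does not compare the relative spread of genes at unlike levels. Fth1 had a mean of 70.3 thinned UMIs, and Ccl8, at rank 16, a mean of 0.702. With each cell thinned to 2000 UMIs (771 cells), the variance over the mean, lowest of the 5 libraries, was 51.5 for Spp1, which encodes osteopontin, 28.2 for Cd74, the invariant chain of MHC class II, and 15.3 for Lyz2, the lysozyme of macrophages, against a median of 1.07 over 1751 genes. Spp1 had a median of 18.5 to 31.2 CP10K per cell and a 90th percentile of 249 to 401 in the libraries, and 8.70% to 20.5% of the cells had none. Cd5l, a secreted scavenger receptor protein, was absent from 61.5% to 73.3% of the cells and reached 24.9 to 68.1 CP10K at the 90th percentile. Trem2 was even by comparison, with medians of 16.3 to 18.96 and 90th percentiles of 30.3 to 32.5.

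Set against the 1137 Gpnmb-negative macrophages of the same libraries, which the rule separated and which are therefore compared without a test, the foamy cells carried the lipid and lysosome genes. Cd5l stood at 7.81 to 14.3 CP10K in the foamy libraries and 0.145 to 1.18 in the Gpnmb-negative ones. Fabp5, a fatty acid carrier, stood at 27.6 to 84.1 against 1.89 to 7.06, and its relative Fabp4 at 1.23 to 6.94 against 0.0755 to 0.586. Atp6v0d2, a subunit of the proton pump of lysosomes and osteoclasts, had 2.12 to 3.44 against 0.0965 to 0.303. Ctsl, a lysosomal cysteine protease, had 15.1 to 26.3 against 2.64 to 3.23. Among genes with a mean of at least 0.5 CP10K in foamy cells, the others with the largest median differences (log2, foamy minus Gpnmb-negative, same sign in 5 of 5 libraries) were Mgst1 at 2.99, Spp1 at 2.75, Apoc1 at 2.61, Npy at 2.57 and Syngr1 at 2.39.

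In the other direction, 8 of 10 MHC class II genes, 12 of 21 inflammatory cytokine and NF-kB feedback genes and 6 of 16 MHC class I genes were lower in foamy cells in 5 of 5 libraries, as were 1496 of all 8422 genes. Il1b, the pyrogenic interleukin, stood at 2.36 to 2.96 CP10K in foamy libraries and 12.6 to 26.8 in Gpnmb-negative ones. Among genes with a mean of at least 0.5 CP10K in Gpnmb-negative cells, the other leading ones were Mgl2 at -3.51, St3gal6 at -3.11, Il1r2 at -2.84, Marcksl1 at -2.82, AA467197 at -2.81, Ighm at -2.70, Plac8 at -2.48, Grasp at -2.37 and Ccnd2 at -2.33 (median log2 difference). Cd74 had 83.7 to 143 against 197 to 288.

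By list, 13 of 15 vacuolar ATPase genes, 21 of 28 lysosomal genes, 13 of 18 genes of the Trem2 module and 11 of 18 genes of fatty acid binding and lipid droplets were higher in foamy cells in 5 of 5 libraries, where 12.8% of all 8422 genes were. None of the 28 type I interferon genes or 18 immediate early and heat shock genes was, and 8 of the former and 15 of the latter were lower in 5 of 5 libraries. Sterol synthesis genes split, with 1 of 14 higher and 1 lower. Some of these genes define the programme for which Gpnmb was chosen.

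Between the groups, foamy cells of the libraries labelled Oasl1-/-Apoe-/- carried more interferon-stimulated and MHC transcripts and less of the fatty acid carriers, prosaposin and some lysosomal proteases. With the library as the replicate, 7859 genes with a mean of at least 0.05 CP10K were tested with limma on log2(mean CP10K + 0.05), where a positive difference is a higher level in the Oasl1-/-Apoe-/- group and understates the change of low genes. At a Benjamini-Hochberg adjusted p under 0.05, 326 genes were past the threshold, which is 4.15% of those tested. Of these, 200 were higher in the libraries labelled Oasl1-/-Apoe-/- (2.54% of those tested) and 126 were lower (1.60%), and 3 were genes of the rule (Adgre1, Gpnmb and Rsad2), for which nothing is read from the test. Outside the rule, 323 genes were past the threshold, 198 higher and 125 lower. The median over all tested genes was -0.01. In 31.4% of all tested genes, and in 324 of the 326, the groups did not overlap. The count fell to 177 without Apoe-/- replicate 2, to 202 and 191 without replicates 1 and 3 labelled Oasl1-/-Apoe-/-, and to 146 with cells thinned to 2000 UMIs, and it was 297 without the haemoglobin-positive cells and 328 without the smooth muscle-positive cells.

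**Figure D2:**
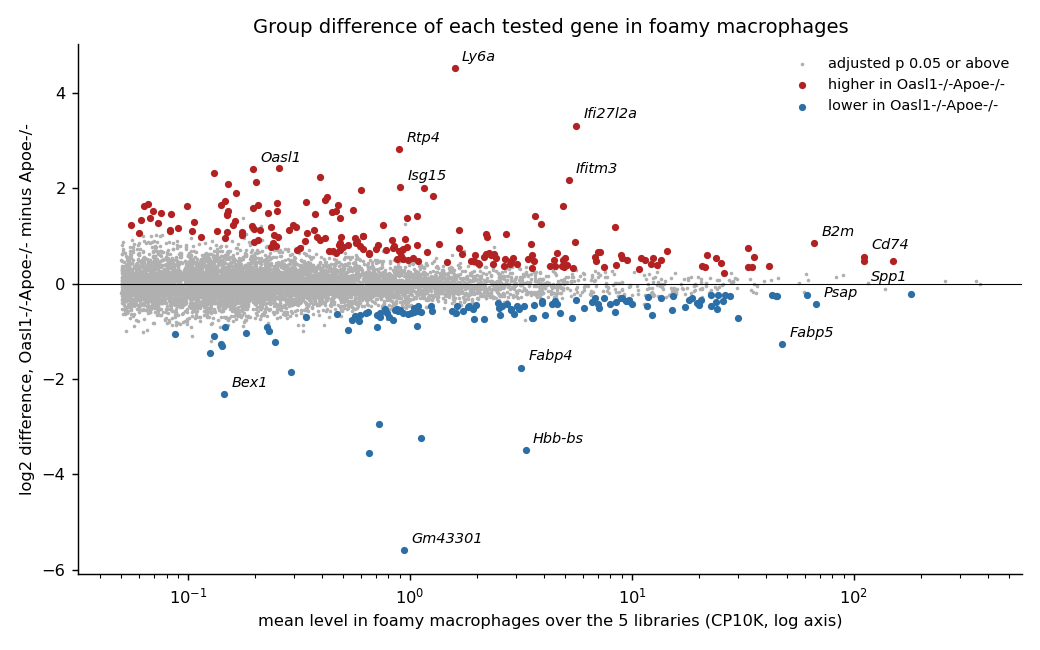
Log2 difference in foamy macrophages between the groups (vertical axis) against the mean level over the 5 libraries (horizontal log axis, CP10K), 1 point a gene of the 7859 tested, coloured where the adjusted p was under 0.05. Red points above 0 are the 200 higher genes, led by Ly6a at 4.52, and blue points below 0 the 126 lower ones, with Fabp5 at -1.27 and Psap at -0.43 standing out for their level.

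Levels of genes of the rule are given here as a description. Gpnmb (chr6:49036546-49070929, + strand) stood at 28.6 and 30.4 CP10K in the Apoe-/- foamy cells against 20.2, 19.4 and 21.8, and Lpl (chr8:68880491-68907448, + strand) at 11.6 and 12.9 against 11.3, 11.3 and 11.5. Gpnmb levels did not overlap between the groups, and Lpl levels lay close together. Adgre1 stood at 2.34 and 2.20 against 3.76, 3.24 and 3.01 CP10K, and Rsad2 at 0.0571 and 0.117 against 0.310, 0.341 and 0.319. C1qa stood at 59.3 and 52.8 against 66.6, 62.3 and 63.7, and C1qb at 83.55 and 73.7 against 87.3, 86.1 and 86.2. None of these overlapped, while Csf1r, Cxcl10 and Cxcl9 did. Trem2, outside the rule, stood at 19.7 and 18.9 against 18.3, 19.8 and 18.0 CP10K, with overlapping groups.

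Fabp5 and Fabp4 fell. They are fatty acid carriers, cytosolic proteins that ferry fatty acids between membranes, droplets and the nucleus. Fabp5 (chr3:10012548-10016607, + strand) stood at 62.7 and 84.1 CP10K in the Apoe-/- libraries and at 27.6, 30.4 and 32.5 in those labelled Oasl1-/-Apoe-/-. The means were 73.4 ± 15.1 (SD, n = 2) and 30.1 ± 2.43 (SD, n = 3), so both Apoe-/- libraries were higher, 2.44-fold on the means, and the log2 change was -1.27 ± 0.09 (SE; limma adjusted p 7.75e-08). Fabp4 (chr3:10204088-10208576, - strand), its neighbour, stood at 4.14 and 6.94 against 1.23, 1.90 and 1.58. It too did not overlap, at -1.76 ± 0.18 and an adjusted p of 5.47e-06. Both calls held in the 20 alternative settings, in which the log2 difference of Fabp5 ranged from -1.48 to -1.06. The share of foamy cells with no Fabp5 UMI was 4.88% and 5.13% against 14.9%, 14.5% and 8.70%. Fabp4 is also an endothelial transcript, and the summed endothelial markers of the foamy cells were 0.348 and 0.320 CP10K against 0.138 to 0.221.

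Other droplet genes went the same way or were within error. Hilpda, an inhibitor of triglyceride lipase that sits on droplets, fell from 4.82 and 4.49 CP10K to 2.68, 3.15 and 2.65, or -0.71 ± 0.10 on the log2 scale (limma adjusted p 0.000226). Mgll, the monoglyceride lipase, had 37 and 42 UMIs against 13, 4 and 10, and fell by 1.27 on the log2 scale, a call lost in 3 of 19 settings. Plin2, the coat protein of droplets, stood at 13.5 and 15.7 against 12.4, 11.7 and 12.3, a difference of -0.26 that did not pass (adjusted p 0.0617). Of the 18 tested genes of this list 4 were lower and none higher, where 1.60% of all tested genes were lower and 2.54% higher. The median was -0.21 beside -0.01 over all genes, and it was below 0 in every alternative setting, from -0.36 to -0.03. None of the lower members was a triglyceride-synthesis enzyme, and Dgat1 had a difference of -0.35 (adjusted p 0.579).

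Uptake and efflux genes gave few calls, beside 2.54% higher and 1.60% lower among all tested genes. Of 10 receptors of lipoprotein uptake, Scarb2, a lysosomal membrane protein, was lower, at 1.46 and 1.55 against 1.02, 1.09 and 1.12 CP10K, and its call was lost in 11 of 20 settings. The fatty acid translocase Cd36 stood at 1.96 and 1.78 against 1.94, 1.90 and 2.21. Of 15 efflux and LXR genes, Npc2, which hands cholesterol out of lysosomes, was higher (23.8 and 23.4 against 27.3, 27.3 and 28.5 CP10K), and its call was lost in 13 of 20 settings. The cholesterol exporters Abca1 and Abcg1 had differences of -0.27 and -0.18 that did not pass. The median of the efflux list was -0.25, with 11 of 15 differences negative. It was below 0 in every alternative setting, from -0.28 to -0.02. None of the 13 sterol synthesis genes passed by limma, with Ebp at -0.32 (adjusted p 0.3) and Msmo1 at 0.31 (adjusted p 0.579).

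**Figure D3:**
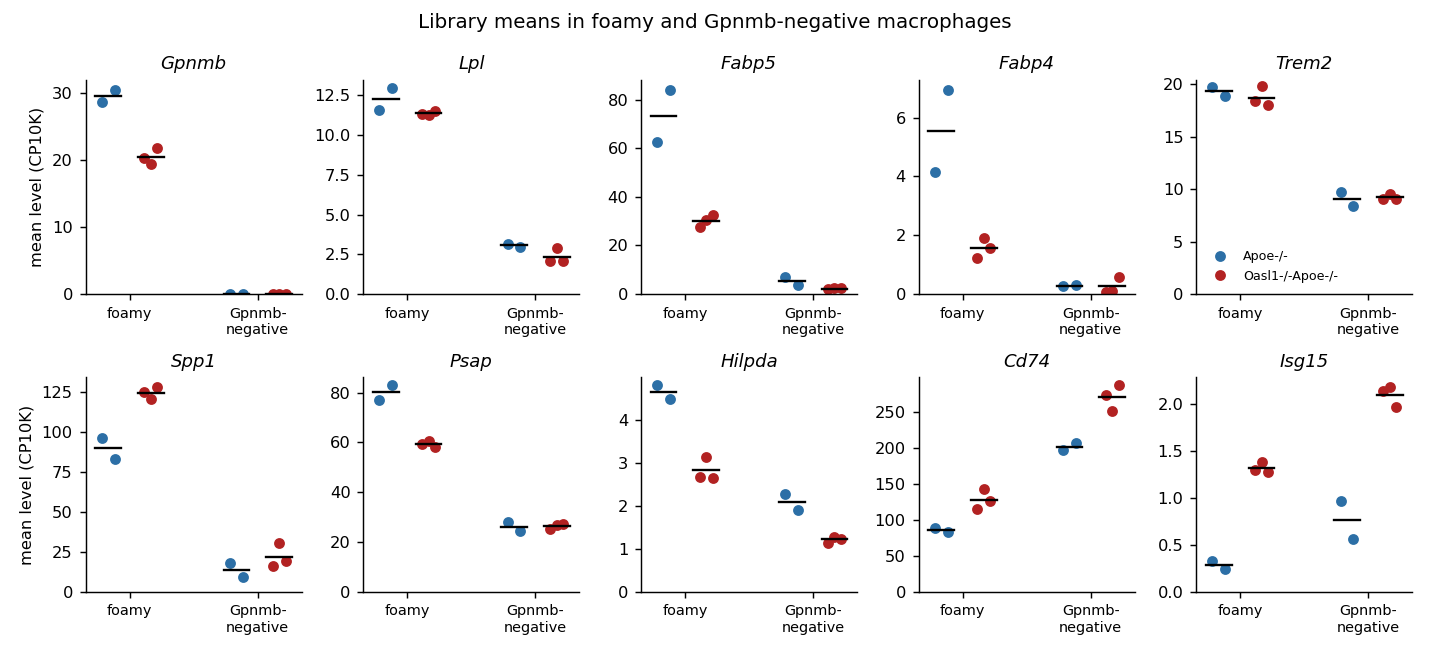
Library means (CP10K, linear axes starting at 0, 1 point a library, line for the group mean) of 10 genes in foamy and Gpnmb-negative macrophages. Fabp5 is at 62.7 and 84.1 in the Apoe-/- foamy cells against 27.6 to 32.5, Psap is at 77.0 and 83.1 against 58.0 to 60.4, and Trem2 lies between 18.0 and 19.8 in all foamy libraries.

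Lysosomal genes were among those that fell, by small amounts. Psap (chr10:60277627-60302597, + strand), the precursor of the saposins that help hydrolases reach sphingolipids, stood at 77.0 and 83.1 CP10K against 59.4, 60.4 and 58.0. The groups did not overlap, and the change was -0.43 ± 0.05 on the log2 scale (limma adjusted p 6.13e-05), held in 20 of 20 settings. Ctsl fell from 21.3 and 26.3 to 18.96, 15.1 and 18.4, and Ctsd, the main aspartic protease of lysosomes, from 67.5 and 68.1 to 58.7, 57.1 and 57.2. Hexa and Lgmn were also lower and Ctsc, which activates granule proteases, was higher, so that 5 of 28 were lower and 1 higher, with a median of -0.11. Over all tested genes the shares were 1.60% lower and 2.54% higher. Of the 15 vacuolar ATPase subunits, Atp6v0d2 (2.83 and 3.44 against 2.12, 2.27 and 2.33 CP10K) and Atp6v0b were lower, 14 of 15 differences were negative and the median was -0.21. The Ctsl call was lost in 4 of 20 settings, that of Ctsd in 6, that of Atp6v0d2 in 6 and those of Hexa, Ctsc and Atp6v0b in 11, 11 and 13, and Lgmn was not followed across settings. None of the 14 genes of the MiT/TFE factors, which drive lysosome formation, passed by limma, with Gpr137b at -0.02 (adjusted p 0.961) and Map1lc3b at -0.03 (adjusted p 0.935).

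The Trem2 programme did not move as 1 block. Spp1 rose from 96.0 and 83.4 CP10K to 125, 121 and 128, or 0.48 ± 0.06 on the log2 scale (limma adjusted p 4.84e-05), which held in 20 of 20 settings. In the T cells taken as background, 4.35% of 161 cells of the Apoe-/- libraries (7 UMIs) and 17.4% of 425 cells of the others (360 UMIs) had a Spp1 UMI, and the part of free RNA in the Spp1 difference was not tested. Cd9, a tetraspanin, was higher at 0.31, and that call was lost in 12 of 20 settings. Fabp5, Vat1, Ctsd and Syngr1 were lower, with the calls of Vat1 and Syngr1 lost in 4 and 7 of 20 settings. Lgals3, the lectin of lipid-laden macrophages, stood at 110 and 121 against 113, 119 and 117. Of 18 genes 2 were higher and 4 lower, the median was -0.05, and 12 did not pass. Beside this list and the next 2, the shares over all tested genes were 2.54% higher and 1.60% lower. In matrix remodelling, 2 of 17 were lower, Plaur (-0.58 ± 0.13), the urokinase receptor, whose call was lost in 4 of 20 settings, and Mmp8 (-1.30 ± 0.33), a neutrophil collagenase, whose call was lost in 7 of 19 settings. Of 7 osteoclast genes, Atp6v0d2 alone passed.

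Interferon-stimulated genes rose in foamy cells, although the rule removed the cells with at least 2 of 4 such genes. Of 26 tested genes of the type I interferon list, 19 were higher and none lower, where 2.54% of all tested genes were higher and 1.60% lower. All 26 differences were positive, and the median was 1.52 beside -0.01 over all genes. Ifi27l2a, a mitochondrial interferon-induced protein, stood at 0.699 and 0.993 CP10K in the Apoe-/- libraries and at 7.60, 8.71 and 10.1 in those labelled Oasl1-/-Apoe-/-. No library overlapped, and the change was 3.31 ± 0.13 on the log2 scale (limma adjusted p 1.51e-11). Ifitm3, which blocks virus entry at endosomes, went from 1.42 and 1.87 to 7.81, 7.25 and 7.57, and Rtp4 from 0.165 and 0.143 to 1.36, 1.48 and 1.32. Isg15, the ubiquitin-like modifier, went from 0.326 and 0.246 to 1.29, 1.37 and 1.27, and Ifit3, an antiviral RNA-binding protein, from 0.0498 and 0.0136 to 0.256, 0.481 and 0.210. The median of the list was 1.39 among cells with no UMI of any of the 4 interferon genes of the rule. That restriction kept 95.1% and 87.8% of the foamy cells of the Apoe-/- libraries and 71.4%, 73.2% and 70.8% of the others.

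The 10 largest rises outside the rule's genes were Ly6a, Ifi27l2a, Rtp4, Plac8, Oasl1, Ifi213, Oasl2, Ifitm3, Ifit3 and Usp18. Ly6a (chr15:74994877-74998031, - strand), a surface protein also known as Sca-1, had 9 and 6 UMIs in the Apoe-/- foamy cells against 293, 392 and 335. In level this was 0.0566 and 0.0688 against 2.02, 3.497 and 2.30 CP10K, which is 4.52 ± 0.19 on the log2 scale (limma adjusted p 2.52e-11). Ly6a UMIs were absent from 96.3% and 98.7% of foamy cells in the Apoe-/- libraries, and from 70.8% to 73.8% in the others. Plac8 and Ly6a are also expressed by monocytes, stromal and other cells, and the monocyte sums given above were higher in 3 of 3 libraries of the same group. Oasl2, the relative of Oasl1 on the same chromosome, stood at 0.125 and 0.0549 against 0.524, 0.546 and 0.708.

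Reference promoters (RefSeq, GRCm38.p6) of 3 of the interferon genes just named are shown because they carry the letters of an interferon-stimulated response element, searched as GAAA, any 2 bases and GAAA again, or the same on the other strand as TTTC, any 2 bases and TTTC. The windows run from 250 bases before to 50 after the gene start, 5′ to 3′ along the gene's strand, with matches in capitals (overlapping matches are merged). They are chr4:156200769-156201068 (- strand, 3 matches), chr19:34583279-34583578 (+ strand, 2 matches) and chr7:141010695-141010994 (- strand, 2 matches).
Isg15: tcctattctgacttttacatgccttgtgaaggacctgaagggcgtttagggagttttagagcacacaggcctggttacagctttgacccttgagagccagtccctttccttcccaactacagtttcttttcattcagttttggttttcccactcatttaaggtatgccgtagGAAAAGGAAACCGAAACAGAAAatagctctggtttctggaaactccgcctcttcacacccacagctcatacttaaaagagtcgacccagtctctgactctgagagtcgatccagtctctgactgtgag
Ifit3: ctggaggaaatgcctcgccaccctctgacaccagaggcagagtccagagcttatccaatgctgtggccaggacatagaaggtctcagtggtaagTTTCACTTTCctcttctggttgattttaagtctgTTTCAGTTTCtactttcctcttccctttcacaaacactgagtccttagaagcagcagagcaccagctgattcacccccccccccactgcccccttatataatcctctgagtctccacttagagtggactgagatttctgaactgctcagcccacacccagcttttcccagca
Ifitm3: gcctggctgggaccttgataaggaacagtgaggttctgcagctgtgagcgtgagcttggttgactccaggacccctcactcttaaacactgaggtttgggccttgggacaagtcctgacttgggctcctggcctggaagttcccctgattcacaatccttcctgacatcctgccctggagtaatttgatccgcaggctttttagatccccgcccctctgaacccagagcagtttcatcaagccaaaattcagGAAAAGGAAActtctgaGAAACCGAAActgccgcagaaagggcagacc

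The first match began 78 bases before the start of Isg15, 156 before that of Ifit3 and 2 after that of Ifitm3. Of the 200 higher genes, 154 had a window in the table and 29 of these (18.8%) held a match. The share was 7.14% of the 98 lower genes with a window, 4.28% of the 6262 tested genes with one and 3.99% of all 27025 genes of the table. A match is a run of letters, not a shown binding site.

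The interferon-gamma and antigen presentation lists had smaller medians than the type I list. Their counts stand beside 2.54% higher and 1.60% lower among all tested genes. Of 15 genes of the interferon-gamma and GTPase list, 5 were higher and none lower (median 0.35), among them the immunity-related GTPases Irgm1, Igtp and Iigp1 and the guanylate-binding protein Gbp2. Iigp1 was listed at 0 in both Apoe-/- libraries against 0.134, 0.0813 and 0.103 CP10K. In the MHC class I list 8 of 16 were higher and 1, the chaperone Calr, was lower (median 0.45). B2m, the light chain of class I, stood at 44.2 and 45.0 against 84.2, 77.8 and 80.4 CP10K, which was 1.81-fold higher on the means (log2 0.86 ± 0.05, limma adjusted p 8.41e-09). The heavy chains H2-D1 and H2-K1 were higher at 0.75 and 0.59, and the immunoproteasome subunit Psmb9 at 0.93. In the MHC class II list 5 of 9 were higher and none lower (median 0.55), with Cd74 at 88.8 and 83.7 against 115, 143 and 126 CP10K, H2-Ab1 and H2-Eb1 at 0.55 and 0.43, and the costimulator Cd86 at 0.85. H2-Ab1 lost its call in cells with no UMI of the rule's interferon genes, and Cd86 without Apoe-/- replicate 2, when thinned and without smooth muscle-positive cells. H2-Eb1 lost its call without Apoe-/- replicate 2, without replicate 3 labelled Oasl1-/-Apoe-/-, and in cells with no UMI of the rule's interferon genes.

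Chemokines rose in part. Of 16 tested 6 were higher and 1, the atypical receptor Ccrl2, was lower (median 0.51), beside 2.54% higher and 1.60% lower among all tested genes. Ccl8, which draws monocytes and T cells, stood at 1.996 and 1.61 CP10K against 5.11, 5.40 and 4.12 (log2 1.41 ± 0.12, limma adjusted p 6.31e-07). Ccl12 went from 0.618 and 0.416 to 1.48, 1.17 and 1.71, Ccl4 from 4.09 and 6.79 to 8.79, 7.73 and 8.59, and Cxcl1, the neutrophil attractant, from 1.63 and 1.66 to 2.32, 3.17 and 2.25. The Ccl4 and Cxcl1 calls were lost in 5 and 6 of 20 settings.

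Of 20 cytokine and NF-kB feedback genes, 3 were lower and 2 higher (median -0.04), beside 1.60% lower and 2.54% higher among all tested genes. Il1a fell from 1.005 and 1.009 CP10K to 0.482, 0.535 and 0.527, or -0.91 ± 0.14 on the log2 scale (limma adjusted p 0.000736). Nfkbia, the inhibitor that NF-kB induces, fell by 0.56 and Tnf by 0.49 on the log2 scale. The interleukin-1 receptor antagonist Il1rn and the inflammasome protease Casp1 rose, by 0.75 and 0.81. The calls of Tnf, Il1rn and Casp1 were lost in 5 of 20, 2 of 20 and 5 of 19 settings. Il1b stood at 2.96 and 2.36 against 2.59, 2.58 and 2.55, with overlapping groups.

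**Figure D4:**
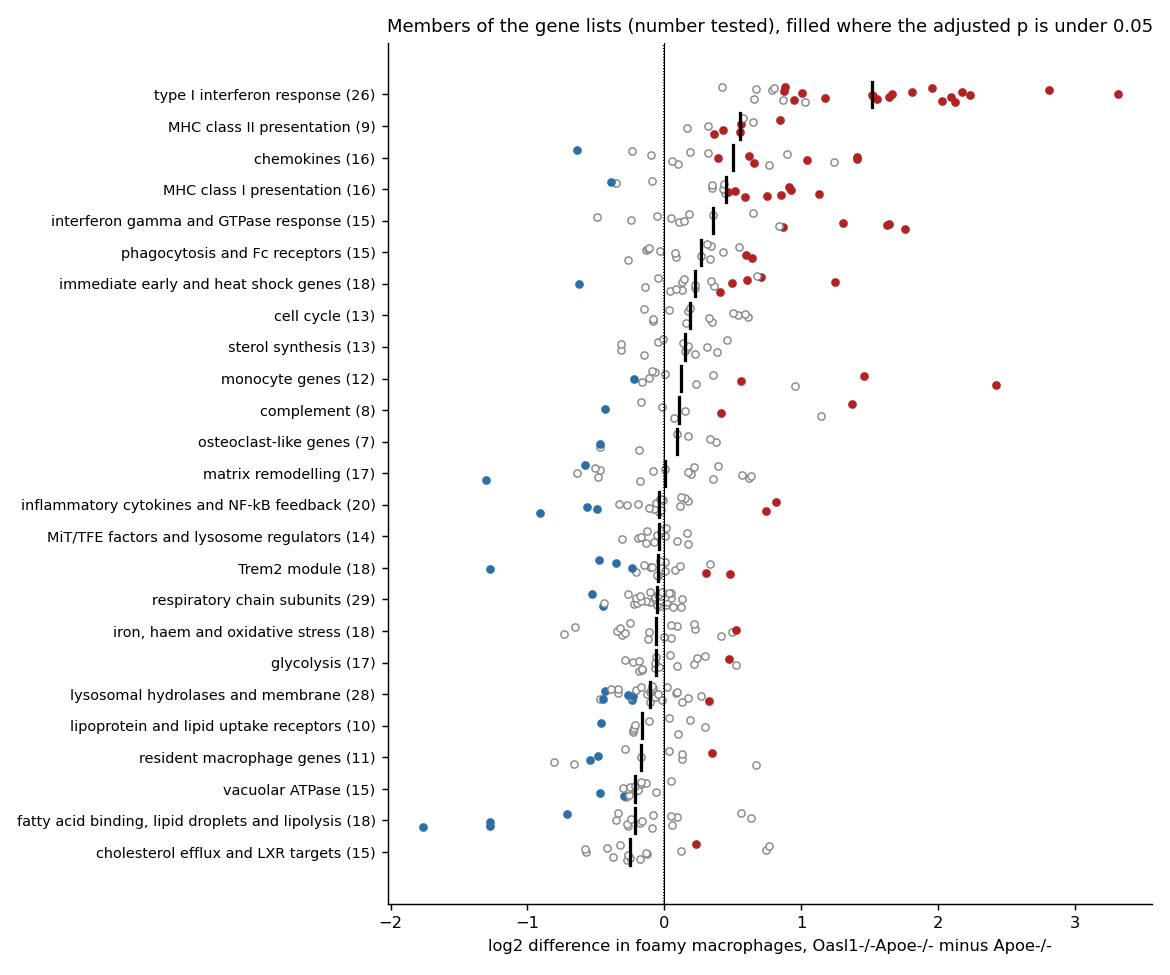
Log2 difference in foamy macrophages between the groups (horizontal axis) of every tested member of 25 gene lists (rows, with the number tested), filled red or blue where the adjusted p was under 0.05, with the black bar at the list's median. The type I interferon list stands apart at a median of 1.52, while the medians of the other lists lie between -0.25 and 0.55.

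Stress genes and identity genes followed. Of 18 immediate early and heat shock genes, 5 were higher and 1, Ier3, was lower (median 0.23). For these lists too, the shares over all tested genes were 2.54% higher and 1.60% lower. The inducible chaperone Hspa1a stood at 2.24 and 1.98 against 4.70, 5.36 and 5.16 CP10K (1.25 ± 0.10, limma adjusted p 2.09e-07), and Hspa8, Fos and Dusp1 were higher at 0.61, 0.41 and 0.50. The calls of Fos, Dusp1 and Ier3 were lost in 4, 4 and 7 of 20 settings. Such genes are also known to respond to tissue dissociation, for which the labels give no measure. Of 11 resident macrophage genes, Selenop, the selenium transporter, fell from 20.9 and 20.9 to 14.9, 14.3 and 15.4 CP10K (-0.49 ± 0.07, limma adjusted p 0.000159), Gas6 fell by 0.54, and Ms4a7 rose by 0.35. The Gas6 call was lost in 9 of 20 settings, among them each library left out, the replicate block and limma-voom. Of 12 monocyte genes, Plac8, S100a6 and Ms4a4c were higher and Lyz2 was lower at -0.22, a call lost in 7 of 20 settings.

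In the remaining lists few members passed, but the lists are short. Over all tested genes 4.15% passed. The share was larger in the complement list (2 higher and 1 lower of 8) and the phagocytosis list (2 higher of 15). Of 18 genes for iron, haem and oxidative stress, Prdx1, a peroxidase, rose from 18.7 and 18.9 to 30.9, 24.8 and 26.1 CP10K (0.53 ± 0.08, limma adjusted p 0.0004). Of 29 respiratory chain genes, Atp5a1 and Ndufa4 were lower at -0.53 and -0.45, and of 17 glycolysis genes Eno1 was higher at 0.47, with the calls of Ndufa4 and Eno1 lost in 5 and 7 of 20 settings. In the complement list, C4b and C3ar1 were higher and Cfp, which stabilises the alternative convertase, was lower, of 8, and these calls were lost in 4 of 15, 6 of 20 and 7 of 20 settings. The Fc receptors Fcgr1 and Fcgr4 were higher at 0.64 and 0.60, of 15 phagocytosis genes. None of 13 cell cycle genes passed by limma, in cells from which most cycling ones had been removed, with H2afz at 0.19 (adjusted p 0.269) and Tuba1b at 0.03 (adjusted p 0.934).

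The largest falls were of a different kind. Gm43301, a transcript antisense to Ift81 within that gene on chromosome 5, gave 315 and 306 UMIs in Apoe-/- foamy cells, while the 3 libraries labelled Oasl1-/-Apoe-/- list it at 0 in foamy and in Gpnmb-negative cells. The haemoglobin genes Hbb-bt, Hbb-bs, Hba-a1 and Hba-a2 had log2 differences of -3.55, -3.499, -3.24 and -2.95 that came mostly from Apoe-/- replicate 2, where Hbb-bs stood at 14.4 CP10K against 1.18 in replicate 1 and 0.245 to 0.422 in the others. Without replicate 2 the calls of both Hba genes were lost, as they were without replicates 1 or 3 labelled Oasl1-/-Apoe-/-. The calls of all these haemoglobin genes were lost in the gate without the interferon exclusion. By limma-voom those of Hbb-bt and both Hba genes were lost, and without haemoglobin-positive cells those of both Hba genes. Cd4 fell from 0.260 and 0.209 to 0.0720, 0.0386 and 0.0498 CP10K (34 and 19 UMIs against 10, 6 and 7), and Cytl1 from 0.564 and 0.545 to 0.108, 0.147 and 0.0990. The Cytl1 call was lost in 3 of 19 settings, on means of the deposited log values, with C1qa and C1qb above 3 and without smooth muscle-positive cells. That of Cd4 was lost in 1 of 19, with thinned cells. Bex1 had 17 and 92 UMIs in the Apoe-/- libraries against 0, 6 and 1. Reads of the near-identical haemoglobin and Hspa1 copies, of the H2 class I genes and of Ifit3 and its copy cannot be fully told apart.

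The group differences of 14 genes differed between foamy and Gpnmb-negative macrophages. The difference of differences was tested with limma on the foamy minus Gpnmb-negative value of each library. Of 8422 genes, 14 (0.166%) passed at an adjusted p under 0.05, while 886 had an unadjusted p under 0.05. The foamy difference was below the Gpnmb-negative one for Cxcl13, Ccl8, Timp1, Il18bp, Ccl6 and Psap, and above it for Cst3, Prdx1, Klf2, Hspb1, Mmp12, AA467197, Cxcl1 and Slpi. This count turned on individual libraries: it was 160 without Apoe-/- replicate 1 and 42 without Apoe-/- replicate 2. Without replicates 1, 2 and 3 labelled Oasl1-/-Apoe-/- it was 6, 9 and 3. It was 6 without the smooth muscle-positive cells.

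Psap was the lysosomal gene among them. Its fall in foamy cells stood beside 28.1 and 24.2 against 25.4, 26.7 and 27.3 CP10K in Gpnmb-negative cells, where the groups overlapped, and the difference of differences was -0.45 (limma adjusted p 0.0352, lost in 9 of 20 settings). Ccl8 rose in foamy cells as given above, but in Gpnmb-negative cells it went from 0.288 and 0.524 to 7.30, 6.38 and 5.32 CP10K, a larger step (difference of differences -2.44, limma adjusted p 6.74e-05, held in 18 of 20 settings). Ccl6 stood at 7.76 and 5.44 against 6.13, 6.04 and 8.36 in foamy cells and at 2.20 and 1.26 against 3.23, 3.95 and 4.53 in Gpnmb-negative cells. Il18bp, the decoy of interleukin-18, stood at 3.35 and 3.27 against 3.03, 2.94 and 2.63 in foamy cells, and at 0.480 and 0.430 against 1.28, 0.955 and 1.15 in the others.

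Contrasts in the opposite sense included a protease and a chemokine. Mmp12, the macrophage elastase, stood at 14.8 and 8.13 CP10K against 14.9, 14.0 and 13.3 in foamy cells, with overlapping groups. In Gpnmb-negative cells it stood at 7.40 and 8.48 against 3.85, 3.51 and 3.85, so the difference of differences was 1.43 (limma adjusted p 0.00344, held in 17 of 20 settings). Cxcl1 rose in foamy cells and stood at 9.74 and 5.45 against 1.91, 4.36 and 2.73 in Gpnmb-negative cells (1.96, limma adjusted p 0.000784, held in 19 of 20 settings). Fabp5 did not differ between the classes beyond error, with a log2 difference of -1.20 in Gpnmb-negative cells, where it stood at 7.06 and 3.71 against 1.89, 2.41 and 2.34, and a difference of differences of -0.07 (limma adjusted p 0.951). The same held for Ly6a (0.07, adjusted p 0.955), B2m (-0.07, adjusted p 0.718) and Isg15 (0.59, adjusted p 0.356). A p that misses the threshold does not show that these differences were equal.

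**Figure D5:**
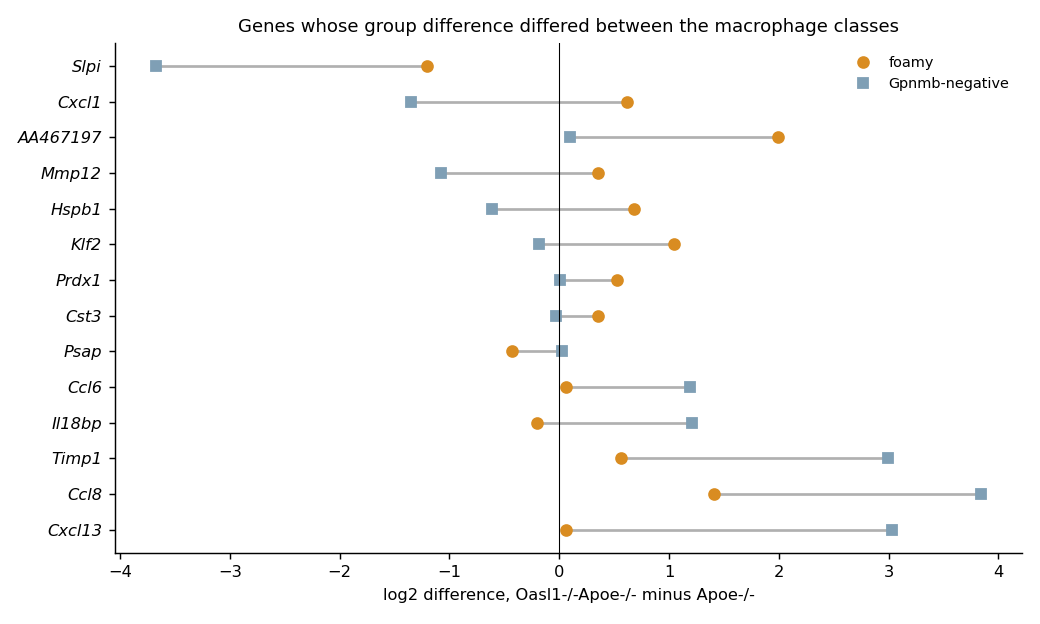
Log2 difference between the groups (horizontal axis) in foamy (circles) and Gpnmb-negative (squares) macrophages for the 14 genes whose differences of differences passed. Psap lies at -0.43 in foamy cells and near 0 in Gpnmb-negative cells, and Mmp12, Cxcl1, Hspb1, Klf2, Cst3 and Il18bp have circles and squares on opposite sides of 0. The calls of Hspb1, Klf2 and Cst3 were lost in 14, 10 and 6 of 20 settings, and those of Mmp12, Il18bp and Cxcl1 in 3, 3 and 1.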

How the data were processed

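Live cells of mouse aortic arch were profiled by droplet 3′-end RNA sequencing in 5 libraries. The authors mapped reads to mm10 (GRCm38) with Cell Ranger 3.1.0, kept cells by gene number and mitochondrial share with Seurat 4.0.3 and removed doublets with DoubletFinder, and none was called again. Deposited by the authors were natural log (ln) values of 1 plus the UMIs scaled to 10000 a cell. The table holds 16498 genes and 18260 cells, where the lowest gene number of a cell was 201 and the highest mitochondrial share 9.99%. Undoing the log gave sums of 10000 within 0.00344, and 100% of values were whole UMIs within a tolerance of 0.01. Genes at 0 in a whole library are only said to be listed at 0.

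Per library and class, mean CP10K was taken and log2(mean CP10K + 0.05) tested with limma 3.58.1 (R 4.3.3, trend, Benjamini-Hochberg adjustment over all genes tested), for genes with a mean of at least 0.05. Interaction tests used the within-library difference of the classes. The scripts were tested on simulated data. Shares were compared by exact permutation over libraries, with Wilson intervals. Replicate numbers were not taken to pair the libraries (2 shared numbers, correlations of deviations 0.0614 and 0.0306). Symbols were matched to GENCODE M21 (98.9%). Cells and gene lists were chosen with earlier results of these data known, so no list is independent support.

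Named were the rule's and marker genes, Oasl1 and Apoe (Nos3 fell below the filter), the 10 largest differences a direction among called, non-overlapping genes, up to 4 called members a list and direction with the smallest p (else the 2 most abundant), the 5 largest differences of differences a direction, and the 10 genes a direction that differed most between the classes with the same sign in 5 of 5 libraries and a mean of at least 0.5 CP10K in the higher class. Other genes were named after their values were seen, among them Cd36, Plin2, Abca1, Abcg1, Dgat1, Lgals3, Lgmn, Cst3, Prdx1, Klf2 and, in the contrast of classes, Cd74. Alternatives covered the scale, pseudocount, filter, each library left out, a replicate block, voom, rescaling, thinning and the gate, and 3 were added after seeing the data (cells without interferon genes of the rule, haemoglobin or smooth muscle UMIs).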

Additional observations from a re-analysis of the deposited data

Results flagged for a closer look

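In 14 genes the difference between the groups differed between foamy and Gpnmb-negative macrophages by the test of the difference itself (limma on within-library differences). The values are log2 differences of differences, foamy minus Gpnmb-negative, with adjusted p in parentheses. Below 0 stood Cxcl13 at -2.97 (0.048), Ccl8 at -2.44 (6.74e-05), Timp1 at -2.43 (0.0218), Il18bp at -1.42 (0.00134), Ccl6 at -1.13 (0.000836) and Psap at -0.45 (0.0352). Above 0 stood Cst3 at 0.38 (0.0175), Prdx1 at 0.52 (0.0352), Klf2 at 1.23 (0.0352), Hspb1 at 1.29 (0.046), Mmp12 at 1.43 (0.00344), AA467197 at 1.90 (0.0358), Cxcl1 at 1.96 (0.000784) and Slpi at 2.47 (0.0358). Cxcl13 had 1 library above 0 in foamy cells, at 0.00665 CP10K, against 0.0123 and 0 in the Apoe-/- and 1.17, 0.157 and 0.324 CP10K in the other libraries of Gpnmb-negative cells, and its call was lost in 13 of 19 settings. Slpi, a protease inhibitor, stood at 2.55 and 0.320 against 0.0294, 0.00507 and 0.0539 CP10K in Gpnmb-negative cells, and its call was lost in 13 of 20 settings. Timp1, the metalloproteinase inhibitor, stood at 0.0496 and 0.0897 against 0.359, 1.54 and 1.23 CP10K in Gpnmb-negative cells, and at 0.0912 and 0.127 against 0.134, 0.287 and 0.157 in foamy cells. The calls of Timp1, Prdx1, Klf2 and AA467197 were lost in 10 of 20 settings each, that of Hspb1 in 14 and that of Cst3 in 6. Those of Il18bp and Ccl6 were lost in 3 and 2 of 20.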

How the results depend on the processing

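Of the 82 named genes past the threshold in foamy cells, none changed direction in the alternatives run, and 49 lost the call in at least 1. The count of 326 genes was 177 to 313 with a library left out, 146 with cells thinned to 2000 UMIs, 284 with a filter of 0.5 CP10K (139 higher and 145 lower) and 346 by limma-voom (189 higher and 157 lower). The 14 differences of differences were 53 on means of the deposited log values, 7 with a pseudocount of 0.01, 3 with no filter, 6 with a filter of 0.5, 24 by limma-voom, 23 without the interferon exclusion, 8 with C1qa and C1qb above 3, 6 without smooth muscle-positive cells and 3 to 160 with a library left out. The cause was not tested. The replicate numbers were not shown to pair the libraries, and with a replicate block the counts were 299 in foamy cells and 30 for the differences of differences. The foamy share of all cells differed by 1.54 points without the interferon exclusion and 0.502 points with at least 2 UMIs of Gpnmb and Lpl. Signs turned for 6 named genes that had not passed, on the log2 scale. Apoe was -0.059 without smooth muscle-positive cells. Gpr137b was 5.7e-05 with at least 2 UMIs of both genes, 0.040 without haemoglobin-positive cells and -0.099 to 0.065 with a library left out. Map1lc3b was 0.0050 on deposited log values, 0.0085 by limma-voom, 0.093 with at least 2 UMIs and -0.11 to 0.057 with a library left out. Tuba1b was -0.015 thinned and -0.10 to 0.17 with a library left out. Ccl6 was -0.076 on deposited log values, -0.093 with the replicate block, -0.11 thinned, -0.0073 without the interferon exclusion, -0.40 with C1qa and C1qb above 3 and -0.20 to 0.31 with a library left out. Mmp12 was -0.074 to 0.79 with a library left out. With 2 libraries against 3, no share could reach an exact p under 0.1, and genes under the filter were not tested in foamy cells.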
